A study of Bos taurus with 13 samples.

Results

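Cows that stayed in negative energy balance (always negative cows, ANCs) were compared with cows that were in negative energy balance at the same time and later left it (transient cows, TCs). The comparison held the 2 ANC pools and the 3 TC pools collected at weeks 5 and 6 post-calving, 5 of the 13 pools of the series, and the miRNAs listed for all 5 of them, which were 269 of the 311 miRNAs listed in any pool. All animals of both groups were lactating Holstein-Friesian cows, and the labels mark the TC pools as "Early negative" and the ANC pools as "Always negative". By the study's account, energy status came from serum non-esterified fatty acids and β-hydroxybutyrate, body weight and calculated energy balance. The groups were defined by their energy balance between weeks 5 and 10. Both groups thus had a negative balance when these pools were taken and differed in what followed. The ANC pools came from 2 cows and the TC pools from 11, and the way in which animals were divided among pools is not given in the sources used here. The p-values below therefore measure the spread between pools. Each pool was follicular fluid aspirated from large follicles, from which extracellular vesicles (EVs), small membrane-enclosed particles shed by cells, were isolated by ultracentrifugation for small RNA sequencing.

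A miRNA is a short RNA that guides a silencing complex to partly matching sites in mRNAs and lowers the output of those mRNAs. Follicular fluid bathes the oocyte and carries EVs released by granulosa, theca and cumulus cells, as well as material that passes from the blood across the follicle wall. Several miRNAs are abundant in a narrow range of cells, such as miR-142 and miR-150 in white blood cells, miR-451 in red cells, miR-122 in hepatocytes and miR-202 in gonads, and are for that reason used as markers of origin. Others, such as miR-375, miR-27a, miR-29 and the miR-378 family, have known roles in insulin secretion, insulin response and lipid handling, which negative energy balance engages.

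The reads behind the deposited values were recovered for each pool, and they numbered 222091 and 145030 in replicates 1 and 2 of the ANCs and 290029, 355883 and 363025 in replicates 1, 2 and 3 of the TCs. A miRNA with 3 reads, taken as the smallest visible abundance, stood at 11.0 and 20.8 CPM (read counts scaled to a common library total) in the ANC pools and at 8.76 to 10.3 CPM in the TC pools, so low miRNAs were least precise in ANC replicate 2. These floors cover counting error only, because reads that were amplified are not independent molecules. The 5 libraries were scaled together, and all levels below are CPM on that common scale. Over the 225 miRNAs with enough reads to be tested, Pearson's r of log2 levels was 0.95 between the ANC pools, 0.90 to 0.97 among the TC pools and 0.90 to 0.97 between the groups, and the most alike pair was ANC replicate 2 with TC replicate 1. The points of these correlations are miRNAs and share their libraries, so they are no independent replicates.

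No miRNA was called differentially expressed (DE) between ANCs and TCs, where a call needed a log2 fold change of 1 or more in size together with p under 0.05 and adjusted p up to 0.25. In limma with Benjamini-Hochberg adjustment the count was 0 of 225 (0%) and the lowest adjusted p-value was 0.40. The quasi-likelihood test of edgeR and DESeq2 on the recovered reads also called 0. At an unadjusted p-value under 0.05 there were 18 miRNAs, of which 15 (6.67% of those tested) had lower and 3 (1.33%) had higher levels in ANCs, while edgeR counted 15 in all and DESeq2 18. The 15 lower ones were miR-449a, miR-451, miR-122, miR-132, miR-147, miR-2285t, miR-142-5p, miR-150, miR-375, miR-221, miR-27a-3p, miR-193a-5p, miR-378c, miR-29b and miR-100. The 3 higher ones were miR-374a, miR-328 and miR-202. None of these passed the adjusted threshold, and they are described below as the part of the profile where the groups stood farthest apart relative to their spread.

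The background against which these numbers are read is the whole table. The log2 fold change of ANCs over TCs had a median of -0.09 and a median standard error (SE) of 0.50, was above 0 for 94 miRNAs (41.8%) and reached at least 1 in size for 35 (15.6%). In 61 miRNAs (27.1%) the values of the groups did not overlap, with both ANC pools above the 3 TC pools in 26 (11.6%) and below them in 35 (15.6%), and the 18 miRNAs named above are among these 61. Scaled to library totals in place of the trimmed mean of M-values (TMM), the median became 0.14, and 11 higher and 12 lower miRNAs had an unadjusted p-value under 0.05. An exact two-sided permutation test of 1 miRNA over these 5 pools cannot give a p-value under 0.1. Its p-value was 0.2 for miR-132, miR-193a-5p, miR-29b, miR-375 and miR-449a, and 0.1 for the others of the 18.

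**Figure D1:**
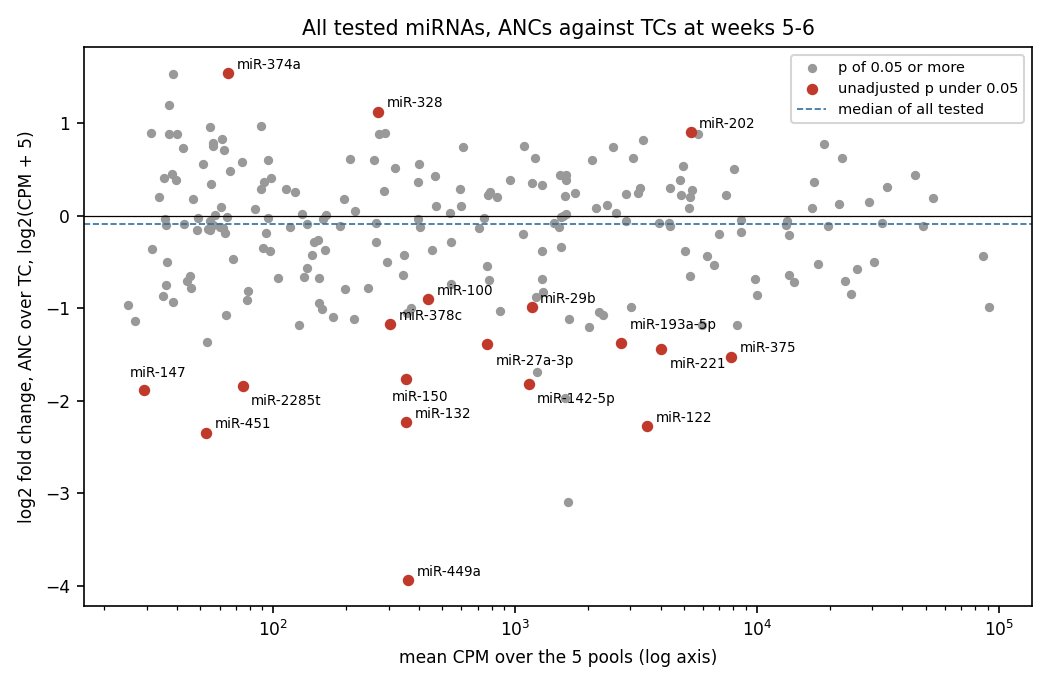
Log2 fold change of ANCs over TCs at weeks 5 and 6, on the log2(CPM + 5) scale, against the mean CPM of the 5 pools on a log axis, with 1 point per tested miRNA (225 in all). Red points are the 18 miRNAs with an unadjusted p-value under 0.05, of which 15 lie below 0 and 3 above, and the dashed line is the median of -0.09.

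The count depended on single pools. Without ANC replicate 2, so that ANC replicate 1 alone stood for the group, 7 miRNAs were called, all lower in ANCs, and 22 were at an unadjusted p-value under 0.05. The 7 called were miR-122, miR-142-5p, miR-145, miR-150, miR-221, miR-27a-3p and miR-451. Without ANC replicate 1 the counts were 0 and 11, and without TC replicate 1 they were 0 and 9. In the fits that leave an ANC pool out, the remaining pool is assumed to vary like the TC pools. The RNA of replicate 1 of both groups was measured on one day and that of the other replicates on the next, and with this day as a term the counts were 0 and 12.

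Of 7 listed white blood cell miRNAs 6 were tested and none was called. All 6, and 5 of the 6 with libraries scaled to their totals, had a negative log2 fold change, down to -1.82 for miR-142-5p and near 0 at -0.04 for miR-146b, with a median of -1.14 against -0.09 over all tested miRNAs. Of the 6, 2 had an unadjusted p-value under 0.05 (6.67% of all tested), and in 4 the ANC pools lay below every TC pool (15.6% of all tested). miR-142-5p, which is made in nearly all cells of the blood lineage, stood at 246.3 and 769 CPM in ANC replicates 1 and 2 and at 1466, 1617 and 1589 CPM in TC replicates 1, 2 and 3. Both ANC values lay below the TC range, which was narrow at 1557 ± 80.2 CPM (SD, n = 3). The log2 fold change was -1.82 (SE 0.51, limma adjusted p = 0.40). It was the only miRNA of the 18 with an unadjusted p-value under 0.05 in each of the 17 alternative fits, with log2 fold changes from -2.64 to -0.997.

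miR-150, known from mature B and T lymphocytes, was at 80.9 and 236 CPM in the ANC pools and at 506, 397 and 558 CPM in the TC pools. The groups did not overlap, and the level in ANC replicate 1 was the lowest of all. Its log2 fold change was -1.76 (SE 0.53, limma adjusted p = 0.40). Myeloid miR-223, with 66.2 and 152 CPM against 206, 201 and 259 CPM, and miR-146a, a brake on inflammatory signalling, with 40.4 and 111 CPM against 189, 131 and 165 CPM, were likewise lowest in ANC replicate 1 and did not overlap between the groups. Their log2 fold changes were -1.09 and -1.19 (SE 0.49 and 0.54, limma adjusted p = 0.55 for both). miR-155 (250 and 319 CPM against 385, 476 and 305 CPM) and miR-146b (357 and 353 CPM against 699, 400 and 172 CPM) overlapped between the groups. The member below the filter, miR-142-3p, is the other arm of the miR-142 hairpin and had 2 and 7 reads in ANCs and 6, 5 and 5 in TCs. At 7.4 and 48.5 CPM, ANC replicate 1 lay below and ANC replicate 2 above the TC pools, which had 14.6 to 20.6 CPM. Its log2 difference between the group means was 0.22, opposite in sign to miR-142-5p, and rests on few reads. The list median was -0.50 without ANC replicate 1 and -1.77 without ANC replicate 2, and it was -0.92 when the libraries were scaled to their totals.

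Red cell miRNAs were low and variable. miR-451, which matures in red cell precursors without Dicer, had 0 and 5 reads in ANC replicates 1 and 2 and 11, 19 and 42 reads in TC replicates 1, 2 and 3. With the depth of each pool taken into account this was 0 and 34.6 CPM against 37.9, 55.5 and 136 CPM. ANC replicate 2 thus lay just under TC replicate 1. The ratio of the summed reads, corrected for library size, was 6.37-fold higher in TCs with a 95% counting interval from 2.61 to 20.2. Its log2 fold change was -2.34 (SE 0.97, limma adjusted p = 0.55), and it was -0.83 without ANC replicate 1. miR-486, the other red cell miRNA listed, spanned 121.3 and 1150 CPM in ANCs and 716, 911 and 5136 CPM in TCs, where ANC replicate 2 lay within the TC range and TC replicate 3 far above the rest (log2 fold change -1.98, SE 1.14, limma adjusted p = 0.58). The summed share of both red cell miRNAs in the reads of the 269 miRNAs was 0.015% and 0.118% in ANCs and 0.076% to 0.448% in TCs, and that of the white blood cell list was 0.128% and 0.198% in ANCs and 0.260% to 0.348% in TCs. By the study's methods, fluid with blood contamination was left out before pooling. What part blood-derived EVs had in the other differences was not tested. In pooled fluid, fewer EVs from a cell type and less of a miRNA per EV cannot be told apart.

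**Figure D2:**
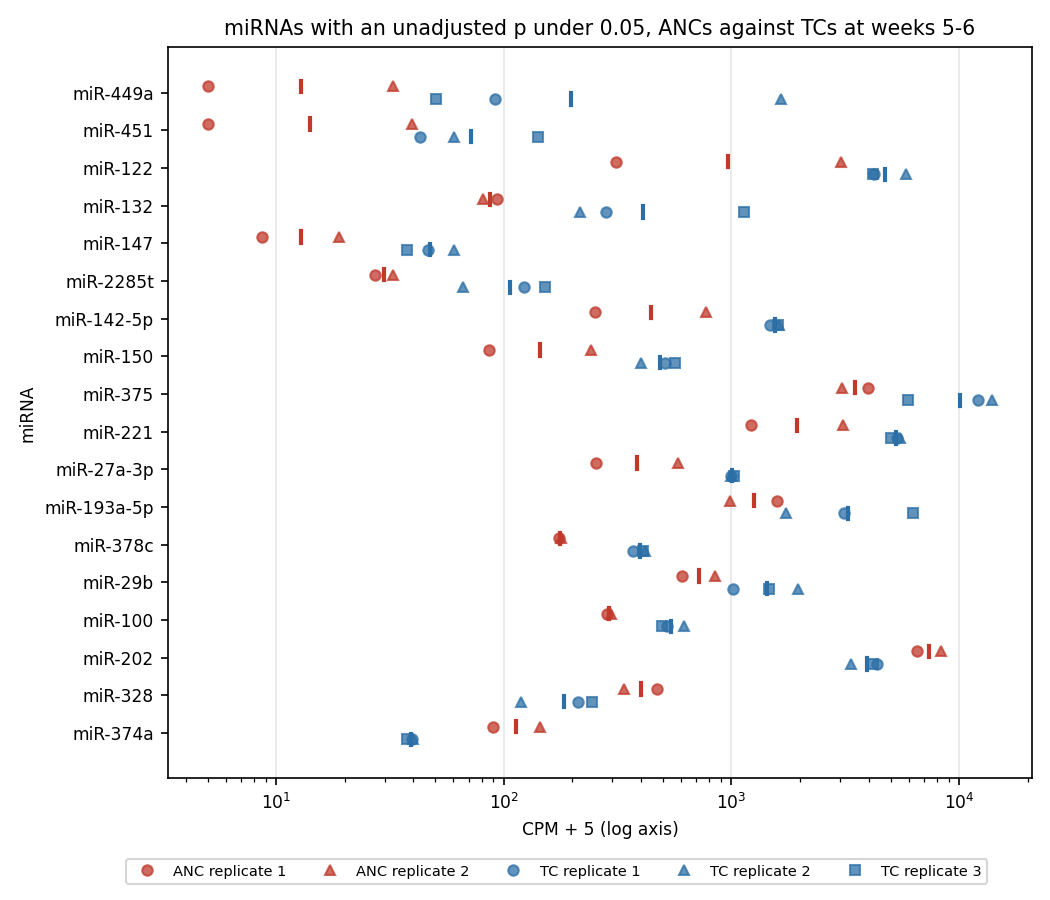
Level of the 18 miRNAs with an unadjusted p-value under 0.05 in each of the 5 pools, as CPM + 5 on a log axis, with ANC pools in red, TC pools in blue, the marker shape giving the replicate and the vertical tick giving the group's mean on the log scale. In all 18 the red and blue points do not overlap, although for miR-451 ANC replicate 2 lies just under TC replicate 1. For miR-122, miR-142-5p, miR-150, miR-221 and miR-27a-3p ANC replicate 1 lies far below ANC replicate 2.

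The 4 miRNAs of the liver and gut list were all lower in ANCs, with a median log2 fold change of -1.08, 1 of them at an unadjusted p-value under 0.05 (6.67% of all tested) and 2 without overlap (15.6% of all tested). miR-122, the main miRNA of hepatocytes with a known role in cholesterol and lipid metabolism, stood at 305 and 3027 CPM in the ANC pools and at 4230, 5861 and 4192 CPM in the TC pools. ANC replicate 1 was far below the other pools, whereas ANC replicate 2 lay not far under the TC range. The log2 fold change was -2.28 (SE 0.87, limma adjusted p = 0.55), and it was -0.62 without ANC replicate 1 and -3.92 without ANC replicate 2. miR-192, expressed in gut, kidney and liver, had 2761 and 7281 CPM against 13653, 8879 and 8641 CPM (log2 fold change -1.18, SE 0.50, limma adjusted p = 0.55). Its relative miR-215 had 1018 and 3138 CPM against 4632, 2758 and 3508 CPM, and miR-194, which is made together with both, 522 and 1302 CPM against 2488, 1141 and 1099 CPM. For miR-215 and miR-194, ANC replicate 2 lay within the TC range. The list median was -0.31 without ANC replicate 1 and -1.84 without ANC replicate 2.

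Among miRNAs with roles in insulin and lipid metabolism, 12 of 13 listed members were tested, and 9 had lower and 3 higher levels in ANCs, with a median log2 fold change of -0.61. An unadjusted p-value under 0.05 was found for 4 of them, all lower, against 6.67% of all tested miRNAs in that direction. miR-375, which restrains insulin release in pancreatic islets and is also found in epithelia, stood at 3985 and 3069 CPM in the ANC pools and at 12162, 13993 and 5982 CPM in the TC pools. The ANC pools were close to each other, and the TC pools were spread over a wider range that lay above them. Its log2 fold change was -1.52 (SE 0.46, limma adjusted p = 0.40), and, as a separate measure, the mean CPM was 3.04-fold higher in TCs.

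miR-378c, of a family with a member encoded inside the gene for a mitochondrial coactivator, was even within both groups, with 169 and 173 CPM against 365, 412 and 405 CPM. The log2 fold change of -1.18 (SE 0.36, limma adjusted p = 0.40) stayed between -1.19 and -1.06 when each pool was left out. miR-378 itself had 4433 and 3353 CPM against 5599, 8070 and 4951 CPM, without overlap (log2 fold change -0.65, limma adjusted p = 0.58). miR-27a-3p, an inhibitor of adipocyte differentiation, had 250 and 575 CPM in ANCs and 988, 995 and 1021 CPM in TCs, a TC range of 1001 ± 17.6 CPM (SD, n = 3). Its log2 fold change was -1.39 (SE 0.44, limma adjusted p = 0.40). miR-29b, whose family acts on insulin signalling and on collagen mRNAs, had 603 and 845 CPM against 1015, 1950 and 1453 CPM (log2 fold change -0.99, SE 0.41, limma adjusted p = 0.55). The remaining tested members, miR-103, miR-107, miR-143, miR-27b, miR-29a, miR-29c and miR-335, overlapped between the groups and had log2 fold changes from -0.85 to 0.36. The list median was -0.24 without ANC replicate 1 and -0.99 without ANC replicate 2.

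Members of the same transcript or family did not all share the differences. The RefSeq annotation of the ARS-UCD2.0 assembly, used for neighbourhood only, places miR-27a-3p within 10 kb of miR-23a and miR-24-3p, miR-221 of miR-222, miR-29b of miR-29a and miR-29c, and miR-100 of let-7a-5p. miR-23a overlapped between the groups at 7525 and 28285 CPM against 22171, 14141 and 43238 CPM, and miR-24-3p did not, at 8418 and 11929 CPM against 15232, 12796 and 19539 CPM. miR-29a and miR-29c had log2 fold changes of 0.08 and 0.12, whereas miR-29b had -0.99. Whether these members differed from each other in their change was not tested.

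miR-221, which with miR-222 targets the cell cycle inhibitor p27, was at 1209 and 3090 CPM in ANCs and at 5331, 5516 and 5003 CPM in TCs. The TC pools were within 5284 ± 260 CPM (SD, n = 3), and the ANC pools lay below and apart from each other. The log2 fold change was -1.45 (SE 0.45, limma adjusted p = 0.40), with -0.76 without ANC replicate 1 and -2.12 without ANC replicate 2. Its neighbour miR-222 was much lower in reads and overlapped between the groups, with 55.1 and 139 CPM against 162, 312 and 104 CPM (log2 fold change -0.95, limma adjusted p = 0.58).

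miR-202 and miR-132, both known from granulosa cells, stood in opposite directions. miR-202, which is abundant in ovary and testis and in granulosa cells, was higher in ANCs, with 6510 and 8292 CPM against 4343, 3339 and 4180 CPM. Both ANC pools lay above the TC range by more than the spread among the TC pools, and the means were 7401 ± 1260 CPM (SD, n = 2) and 3954 ± 539 CPM (SD, n = 3). Its log2 fold change was 0.90 (SE 0.34, limma adjusted p = 0.55), with a 95% interval from 0.11 to 1.70. miR-132, known to respond to luteinizing hormone in granulosa cells, was lower, with 88.2 and 76.2 CPM in ANCs against 275, 210 and 1125 CPM in TCs. TC replicate 3 was several times above the other TC pools, and the log2 fold change was -2.23 (SE 0.73, limma adjusted p = 0.43) with all pools and -1.50 without that pool.

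The remaining higher miRNAs were rarer. miR-374a had 23 and 20 reads in the ANC pools and 10, 12 and 10 reads in the TC pools, which is 84.5 and 139 CPM against 34.4, 35.03 and 32.4 CPM. The ANC pools held more reads of it from smaller libraries, and the log2 fold change was 1.54 (SE 0.47, limma adjusted p = 0.40). Its family member miR-374b, named here after its values were seen, had 66.2 and 48.5 CPM against 24.1, 11.7 and 35.7 CPM (log2 fold change 1.19, limma adjusted p = 0.57). miR-328 had 467 and 333 CPM against 206, 114 and 240 CPM (log2 fold change 1.12, SE 0.47, limma adjusted p = 0.55). It had an unadjusted p-value under 0.05 in 5 of the 17 alternative fits.

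Among the other lower miRNAs, miR-2285t, of a large family found in ruminants, had 6 and 4 reads in ANCs and 34, 21 and 45 reads in TCs. Its log2 fold change was -1.85 (SE 0.54, limma adjusted p = 0.40), and the family as a whole had a median of 0.28 over 9 tested members, with 5 higher and 4 lower. miR-147 had 1 and 2 reads against 12, 19 and 10 reads, a ratio of summed reads of 6.04-fold with a 95% counting interval from 1.93 to 30.5. miR-193a-5p had 1588 and 977 CPM against 3128, 1737 and 6297 CPM, and miR-100, which targets the kinase mTOR, 279 and 291 CPM against 516, 616 and 490 CPM. The log2 fold changes of miR-193a-5p and miR-100 were -1.38 and -0.90 (SE 0.57 and 0.35, limma adjusted p = 0.55 for both). Its relatives miR-99a-5p and miR-99b stood the other way from miR-100, with log2 fold changes of 0.23 and 0.44. So did miR-125a and miR-125b of the separate miR-125 family, with 0.50 and 0.54.

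Epithelial and ciliated cell miRNAs varied among the TC pools. miR-449a, a miRNA of multiciliated cells, had 0 and 4 reads in ANCs and 25, 565 and 14 reads in TCs, so that TC replicate 2 held most of the TC reads. The related miR-34c had 66.2 and 20.8 CPM in ANCs and 79.2, 8032 and 68.1 CPM in TCs, where TC replicate 2 again stood apart and the other TC pools lay just above ANC replicate 1. The log2 fold changes were -3.94 for miR-449a (SE 1.54, limma adjusted p = 0.55) and -3.10 for miR-34c (SE 1.97, limma adjusted p = 0.58). Without TC replicate 2 miR-449a no longer passed the filter on reads, and the median of the 2 members still tested was -0.60. miR-34a, which is induced by p53 and is not particular to ciliated cells, had 599 and 596 CPM against 960, 937 and 743 CPM.

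The miR-200 family, which holds cells in the epithelial state, was lower in ANCs for 5 of 5 members with log2 fold changes from -1.69 to -1.03, and the groups overlapped in every member. miR-200a is typical, with 2165 and 3498 CPM in ANCs and 6419, 14979 and 2523 CPM in TCs. TC replicate 2 was the highest pool in all 5, and TC replicate 3 lay within the ANC range for miR-141, miR-200a, miR-200b and miR-200c and level with ANC replicate 1, at 360 CPM, for miR-429. The family's median was -1.12 with all pools, -0.46 without TC replicate 2 and -1.72 without TC replicate 3. miR-141 had the largest difference, with 250 and 686 CPM against 1404, 3327 and 522 CPM (log2 fold change -1.69, SE 0.81, limma adjusted p = 0.57). Other epithelial miRNAs went both ways, with miR-205 at 323 and 1413 CPM against 1394, 2367 and 587 CPM and miR-31 at 3761 and 2937 CPM against 2237, 2183 and 1621 CPM (log2 fold change 0.74, limma adjusted p = 0.57). The ciliated cell list, which includes miR-34a, held 0.064% to 0.113% of the reads in 4 pools and 1.02% in TC replicate 2. In those 4 pools most of this share was miR-34a, which is not particular to ciliated cells. The part of the list in the other values of TC replicate 2 was not tested.

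The let-7 family, which promotes differentiation and is held back by Lin28 in stem cells, had higher levels in ANCs for 8 of 9 members, and 5 of the 9 did not overlap between the groups, against 11.6% of all tested miRNAs in that direction. let-7c stood at 7848 and 7669 CPM against 5493, 4565 and 2983 CPM, let-7e at 4599 and 4461 CPM against 2901, 3187 and 1838 CPM, and let-7f at 21968 and 28507 CPM against 14606, 17726 and 12234 CPM. Each of these had its lowest level in TC replicate 3, and the log2 fold changes were 0.88, 0.82 and 0.77 (SE 0.38, 0.37 and 0.37, limma adjusted p = 0.55, 0.55 and 0.57). let-7i (34514 and 23110 CPM against 19221, 18721 and 17230 CPM) and miR-98, a let-7 family member under another name (353 and 450 CPM against 234, 163 and 250 CPM), also did not overlap. let-7a-5p, let-7b, let-7d and let-7g did overlap, and let-7b, with the highest level of the family, had 47086 and 42057 CPM against 46141, 75208 and 32262 CPM. No member had an unadjusted p-value under 0.05 in the main fit (1.33% of all tested in that direction). Among the alternatives, 4 did, all higher, with libraries scaled to their totals, 4 in the fit of all 13 libraries, 2 without TC replicate 2 and 1 in DESeq2. In the remaining alternatives none did. Over all tested miRNAs, the higher ones at that p-value numbered 11, 11, 5 and 4 in the same order of fits. The family's median log2 fold change was 0.62, which is 0.71 above the median of all tested miRNAs, and that gap stayed between 0.49 and 0.81 in the alternative fits. As a share of the reads the family held 19.3% and 15.2% in ANCs and 12.5%, 16.6% and 7.74% in TCs.

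**Figure D3:**
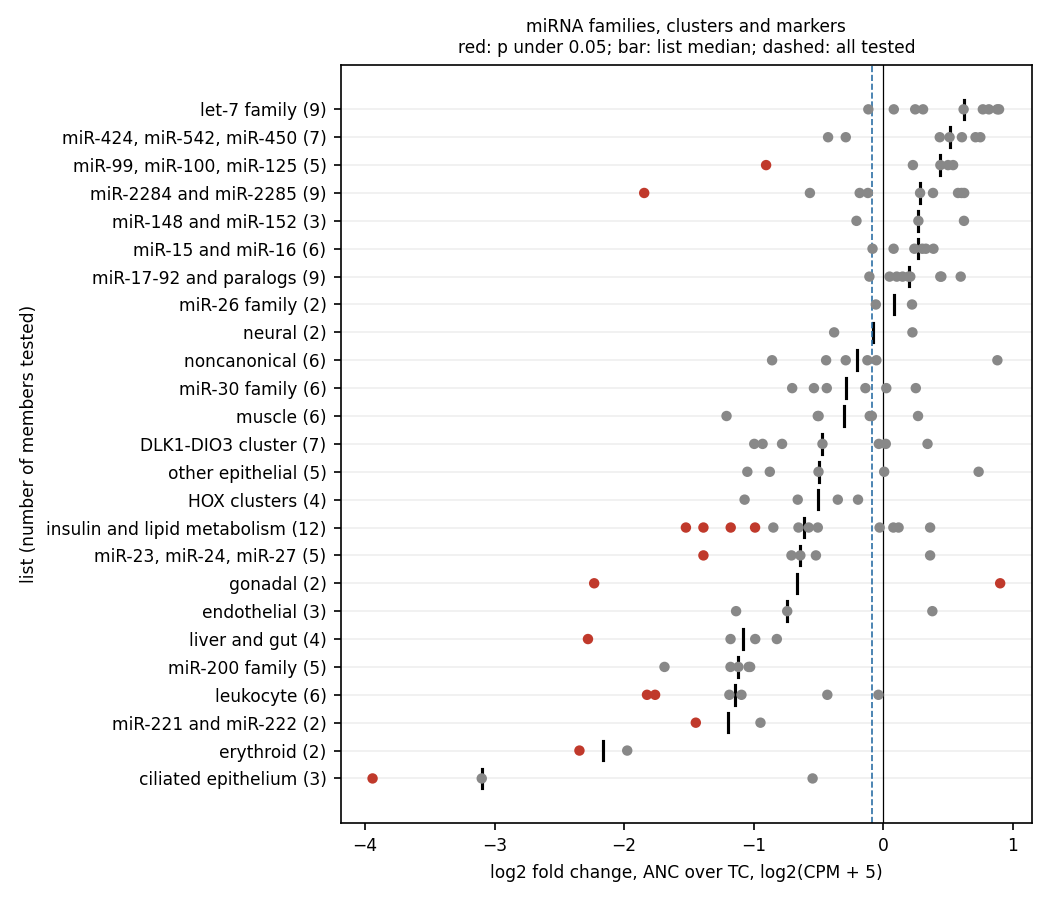
Log2 fold change of ANCs over TCs for the tested members of 25 families, genomic clusters and cell marker lists, ordered by their median, with 1 point per miRNA and red for an unadjusted p-value under 0.05. The let-7 family lies highest with a median of 0.62, the white blood cell, miR-200 and liver and gut lists lie near -1.1, and the dashed line is the median of all tested miRNAs.

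The X-linked cluster of miR-424, miR-542 and miR-450, expressed in the follicle, had 5 of 7 tested members higher in ANCs with a median of 0.51. miR-450b stood at 1562 and 1289 CPM against 792, 657 and 1148 CPM without overlap (log2 fold change 0.75, limma adjusted p = 0.58), and miR-424-3p at 80.9 and 83.1 CPM against 48.2, 64.2 and 35.7 CPM. miR-424-5p overlapped, because TC replicate 3 with 2737 CPM lay above the ANC pools at 1893 and 1642 CPM. The cluster's median was 0.09 without TC replicate 2, 0.97 without TC replicate 3 and 0.17 and 0.19 in edgeR and DESeq2. The miR-17-92 cluster and its paralogs, which promote proliferation, had 8 of 9 members higher with a median of 0.20 and no member without overlap (11.6% of all tested were higher without overlap), and the median was -0.14 without ANC replicate 1. The miR-15/16 family was near the centre, with a median of 0.27 and log2 fold changes from -0.08 to 0.39.

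The 10 miRNAs with the highest mean CPM were miR-21-5p, miR-320a, miR-423-5p, let-7b, miR-92a, let-7a-5p, miR-16b, miR-143, miR-25 and miR-103, and the 10 highest of each library held 46.2% to 52.0% of its reads. miR-21-5p, an inhibitor of apoptosis in granulosa cells, stood at 46700 and 61066 CPM in ANCs and at 104190, 177592 and 64132 CPM in TCs. The groups did not overlap, although TC replicate 3 was close to ANC replicate 2, and the log2 fold change was -0.99 (SE 0.54, limma adjusted p = 0.58). The other 9 overlapped between the groups, with log2 fold changes from -0.58 to 0.44. miR-320a and miR-103, together with miR-107, miR-23a, miR-23b-3p and miR-1246, had the same order of pools in both groups: TC replicate 3 was highest, ANC replicate 2 and TC replicate 1 followed, and ANC replicate 1 and TC replicate 2 were lowest. This set was chosen after its values were seen. For miR-320a the levels were 41274 and 95385 CPM in ANCs and 91325, 42439 and 159451 CPM in TCs, and for miR-107 they were 5871 and 25251 CPM and 22993, 7598 and 60339 CPM.

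The ANC pools did not contribute evenly to the lower miRNAs. Set against the mean of the TC pools on the log2(CPM + 5) scale, the median difference over the 15 lower miRNAs was -2.12 in ANC replicate 1 and -1.02 in ANC replicate 2, while over all tested miRNAs it was -0.10 and -0.07. ANC replicate 1 lay below ANC replicate 2 in 12 of the 15, against 124 of the 225 tested. The exceptions were miR-375, miR-193a-5p and miR-132, where ANC replicate 2 was the lower pool. A difference of at least 1 below the TC mean was found for 53 miRNAs in ANC replicate 1 and for 21 in ANC replicate 2, and of at least 1 above it for 10 and 12. ANC replicate 1 had a TMM factor of 1.22 against 0.850 to 1.002 in the other 4 libraries.

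**Figure D4:**
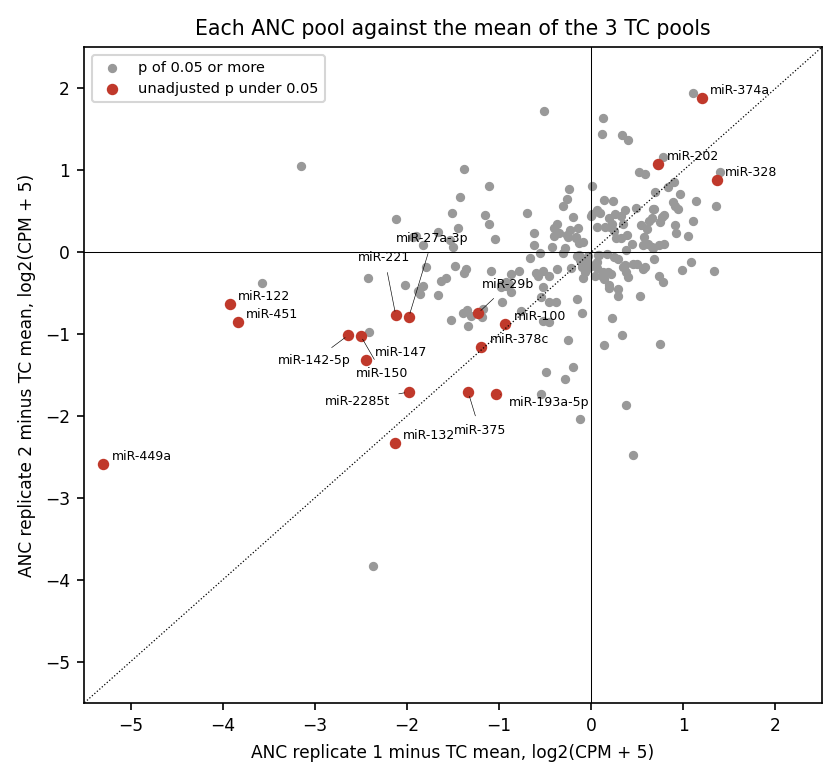
Difference of each ANC pool from the mean of the 3 TC pools in log2(CPM + 5), with ANC replicate 1 on the horizontal axis and ANC replicate 2 on the vertical axis, 1 point per tested miRNA and the dotted line marking equal differences. Most of the 15 lower miRNAs with an unadjusted p-value under 0.05 lie left of the dotted line, with medians of -2.12 in ANC replicate 1 and -1.02 in ANC replicate 2.

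Of the 269 listed miRNAs 44 had too few reads to be tested, with at most 20 reads in any pool, and they are not part of the counts above. Among all 269, at least 1 ANC pool had no read for 12 miRNAs and at least 1 TC pool for 4. The 1 miRNA without reads in both ANC pools was miR-2285z, with 5, 3 and 5 reads in the TC pools. With the ANCs set to 3 reads over the group it was 1.92-fold higher in TCs. The 95% counting interval of the ratio of the observed reads began at 1.35-fold. miR-138 had 3 and 0 reads against 10, 5 and 10 reads, a difference that this depth shows only weakly.

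The levels of the 18 miRNAs in the other groups of the series, with all 13 libraries scaled together over the 262 miRNAs listed in each, are given as a description with no test. ANCs had the lowest mean of the 5 groups for each of the 15 lower miRNAs and the highest for each of the 3 higher ones, against 28.6% and 24.0% of all 262. The same ANC pools chose these miRNAs, so nothing is read from these shares. The TC pools at weeks 5 and 6 took part in choosing these miRNAs, whereas the TC pools at weeks 9 and 10, the always positive cows (APCs) and the heifers did not. Both ANC pools lay outside the range of all 11 other pools for 5 miRNAs, below it for miR-142-5p, miR-150 and miR-451 and above it for miR-202 and miR-374a. Of all 262 miRNAs 6 (2.29%) lay below and 11 (4.20%) above in this way, among them miR-31, miR-450b and miR-98, which were not among the 18. For miR-451 the margin was small, with 33.5 CPM in ANC replicate 2 and 37.7 CPM in replicate 1 of the TCs at weeks 5 and 6.

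miR-142-5p had means of 504 ± 338 CPM in ANCs (SD, n = 2), 1403 ± 840 CPM in APCs (n = 2), 1440 ± 980 CPM in TCs at weeks 9 and 10 (n = 3), 1573 ± 111 CPM in TCs at weeks 5 and 6 (n = 3) and 2181 ± 556 CPM in heifers (n = 3). The highest ANC pool at 743 CPM was close to the lowest APC pool at 810 CPM, and the means of APCs and of TCs at either time differed by less than the SDs of APCs and of the later TCs. miR-150 had 157 ± 99.3 CPM in ANCs, 493 ± 357 CPM and 494 ± 102 CPM in TCs at the later and the earlier weeks, 590 ± 228 CPM in APCs and 867 ± 161 CPM in heifers. miR-202 had 4002 ± 649 CPM in TCs at weeks 5 and 6, 4130 ± 1622 CPM in APCs, 4767 ± 716 CPM in TCs at weeks 9 and 10, 4818 ± 1482 CPM in heifers and 7515 ± 706 CPM in ANCs, and the 4 lower groups did not differ from their neighbours beyond their spread.

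For miR-375 and miR-378c the early TCs had the highest mean. miR-375 had 3630 ± 939 CPM in ANCs, 4560 ± 1657 CPM in heifers and 4688 ± 1423 CPM in TCs at weeks 9 and 10, and 10694 ± 3852 CPM in TCs at weeks 5 and 6, and the 2 APC pools were at 1194 and 14575 CPM. miR-378c had 175 ± 10.5 CPM in ANCs, 210 ± 41.6 CPM in heifers, 274 ± 74.96 CPM in TCs at weeks 9 and 10, 312 ± 150 CPM in APCs and 398 ± 33.1 CPM in TCs at weeks 5 and 6. miR-122 was lowest in ANC replicate 1 at 329 CPM and in APC replicate 1 at 631 CPM, and it reached 17623 CPM in a heifer pool. These means share the ANC pools and the early TC pools with the comparison above.

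**Figure D5:**
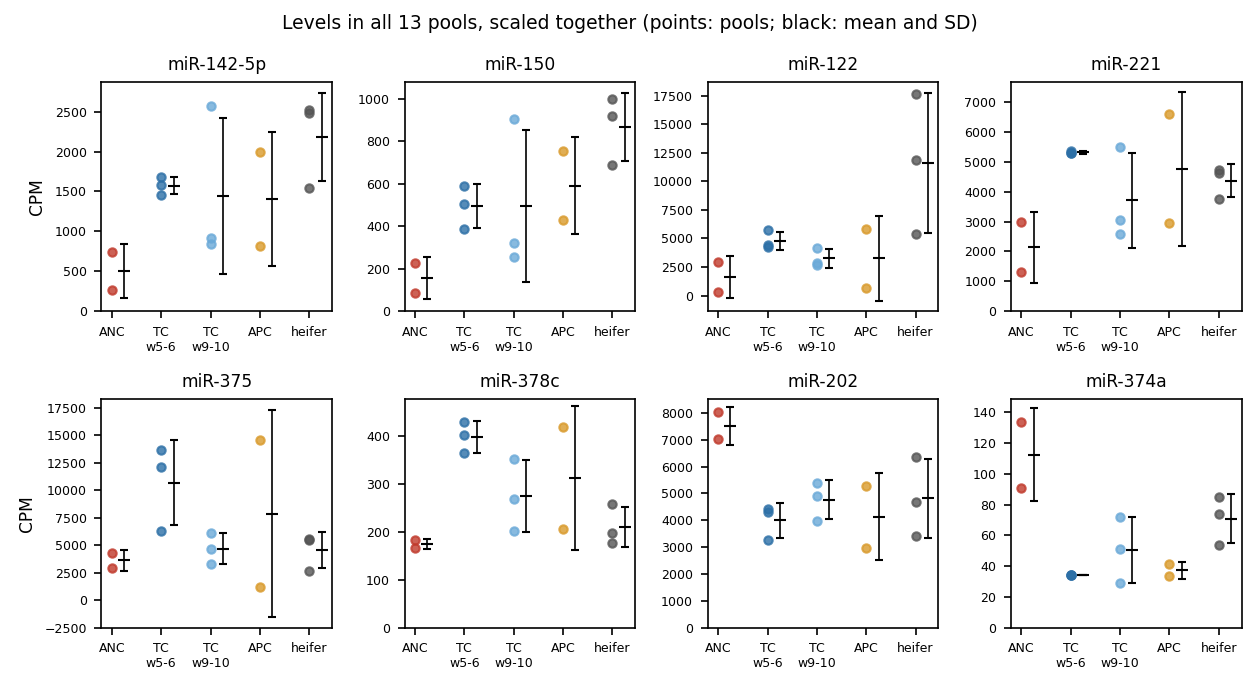
Level of 8 miRNAs in CPM in all 13 pools of the 5 groups (ANC, TC at weeks 5 and 6, TC at weeks 9 and 10, APC and heifer), with 1 coloured point per pool and the group mean with its SD in black. Both ANC pools lie below all others for miR-142-5p and miR-150 and above all others for miR-202 and miR-374a. For miR-375 the TC pools at weeks 5 and 6 have the highest mean, but the highest single pool is an APC pool. The lowest of these TC pools, at 6335 CPM, lies close to a TC pool of weeks 9 and 10 at 6146 CPM.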

How the data were processed

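EV-coupled small RNA was measured in 5 pools, 2 of ANCs and 3 of TCs at weeks 5 and 6, grouped by the labels. The authors used the QIAseq miRNA kit for the libraries, Cutadapt 1.11 to remove adaptors and Bowtie2 2.2.2 for mapping to the UMD3.1 genome, annotated the reads against miRBase and normalized with TMM in edgeR. The deposited values are TMM-normalized CPM, and for libraries whose total exceeds what CPM can sum to the deposited column was recorded as a signal. The authors made both alike. Whole reads were recovered from the steps of the low values, and 1401 of 1401 values came out whole within 0.1 read. The recovered reads of the 269 shared miRNAs were scaled together with TMM (edgeR 4.0.16), filtered with filterByExpr (minimum count 10, minimum total 15) and compared with limma 3.58.1 (R 4.3.3) with a mean-variance trend on log2(CPM + 5). Fold changes on this scale understate the change of low miRNAs, and p-values are two-sided. Counting intervals of read ratios are exact 95% binomial intervals and cover counting error only. The fit was tested on simulated reads.

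Members and lists were chosen with earlier results of these data known. The text names the miRNAs with an unadjusted p-value under 0.05, the 10 with the highest mean CPM, 9 preset ones and the largest and most abundant of each list. Others were added to complete a list or count. 25 lists of families, clusters and markers were described by counts and medians, without a test. Alternatives were other scalings, pseudocounts of 1 and 20 CPM, other filters, edgeR and DESeq2 1.42.0 on the reads, all 13 libraries in one fit, the replicate number as a block, the day of RNA measurement and each pool left out.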

Additional observations from a re-analysis of the deposited data

Results flagged for a closer look

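Of the miRNAs listed for 1 of the groups only, and so outside the comparison, 15 had more than 3 reads in a pool, and all 15 were listed for TCs. miR-34b, which is made together with miR-34c in multiciliated cells, had 3, 169 and 1 reads in TC replicates 1, 2 and 3, in the order of pools seen for miR-34c and miR-449a. The highest number of reads in a TC pool was 10 for miR-181c, 9 for miR-6519, 8 for miR-2285b and miR-433, and 6 for miR-483, miR-487b and miR-500. It was 5 for miR-193b, miR-20b and miR-211, and 4 for miR-2450a, miR-2454-3p, miR-30b-3p and miR-485. The miRNAs listed for ANCs only had at most 3 reads in a pool. Levels of these miRNAs in the other group were not analysed here.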

How the results depend on the processing

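The 18 miRNAs with an unadjusted p-value under 0.05 kept their direction in every alternative fit in which they were tested. Without 1 pool at a time, the number called ranged from 0 to 7 and the number at an unadjusted p-value under 0.05 from 9 to 26, and the median log2 fold change from -0.09 to 0.04. With all 13 libraries in one fit, 28 of 247 miRNAs had an unadjusted p-value under 0.05, 11 higher and 17 lower, and the cause was not tested. Without ANC replicate 1, 4 of the 18 kept an unadjusted p-value under 0.05 (miR-142-5p, miR-202, miR-374a and miR-375). With the replicate number as a block, which leaves TC replicate 3 without a partner, 2 miRNAs were called, miR-449a (log2 fold change -4.92, limma adjusted p = 0.18) and miR-141 (log2 fold change -2.37, limma adjusted p = 0.21), and 17 had an unadjusted p-value under 0.05. Between ANC and TC pools of the same number, r of the differences from the group means was -0.04 for replicate 1 and -0.10 for replicate 2. With 2 ANC pools the differences of one mirror those of the other, so these are not separate checks. Replicate 1 of both groups also shared the day of RNA measurement. Whether pools of the same number belong together was not tested. The other scalings, pseudocounts, filters and tools called 0 miRNAs, with 12 to 23 at an unadjusted p-value under 0.05. Depth limited miR-147, miR-451, miR-449a and miR-2285t, which had at most 6 reads in either ANC pool.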

Other observations

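The imprinted DLK1-DIO3 miRNA cluster had 5 of 7 tested members lower in ANCs with a median log2 fold change of -0.47. miR-432 stood at 140 and 346 CPM in ANC replicates 1 and 2 and at 382, 622 and 370 CPM in TC replicates 1, 2 and 3 (log2 fold change -0.996, limma adjusted p = 0.58), and miR-154c at 18.4 and 27.7 CPM against 41.3, 67.1 and 38.9 CPM. The vessel wall miRNA miR-145, which marks smooth muscle, had 618 and 1905 CPM against 2719, 2148 and 2730 CPM (log2 fold change -1.21, SE 0.51, limma adjusted p = 0.55), whereas miR-143, encoded beside it, overlapped between the groups at 19814 and 29026 CPM against 39471, 39120 and 25541 CPM. The arms of endothelial miR-126 went different ways, with log2 fold changes of 0.38 for miR-126-3p and -0.74 for miR-126-5p, and both overlapped between the groups. Skeletal and heart muscle miR-1 (217 and 443 CPM against 255, 289 and 230 CPM) and miR-499 (47.8 and 34.6 CPM against 44.7, 40.9 and 45.4 CPM) also overlapped. The miR-30 family had log2 fold changes from -0.70 to 0.25 over 6 members, and the HOX cluster miRNAs from -1.07 to -0.19 over 4.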
